A study of Homo sapiens with 6 samples.

Results

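The genes described here encode the MHC class I antigen presentation machinery: the heavy chains HLA-B, HLA-C, HLA-E and HLA-F, their light chain B2M, the peptide transporter subunits TAP1 and TAP2, and the immunoproteasome subunits PSMB8 and PSMB9. They were chosen by name and make up 9 of the 20461 protein-coding genes in the deposited expression table. All 9 were matched by Ensembl identifier. Expression was measured by RNA-seq in PANC1, an established line of human pancreatic carcinoma cells, after 48 h with vehicle (0.1% DMSO; 2 libraries) or with gemcitabine at 50 nM (2 libraries). DNaseI-seq, which marks open chromatin, was available for 1 vehicle-treated and 1 gemcitabine-treated (50 nM) library. The labels of the DNaseI libraries give no exposure time and no DMSO share. The study states that their conditions matched those of its RNA-seq. Gemcitabine is a nucleoside analogue that blocks DNA synthesis. All libraries come from this single cell line.

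MHC class I molecules display short peptides from the proteins made inside a cell, and CD8 T cells and natural killer cells read this display. Peptides are cut by the proteasome, in which the interferon-inducible subunits PSMB8, PSMB9 and PSMB10 can replace the constitutive PSMB5, PSMB6 and PSMB7, and are then pumped into the endoplasmic reticulum by the TAP1-TAP2 transporter. There they are loaded onto a heavy chain paired with B2M. Promoters of these genes are known for interferon-stimulated response elements (ISRE), kB sites bound by NF-kB, and the X and CCAAT boxes read by the NLRC5-RFX-NFY complex. Tumour cells often express the pathway at a low level, and interferons raise it.

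The stretches below are shown because these elements are what the promoters of the pathway are known for. Each is read 5′ to 3′ in the direction of transcription from GRCh37 (hg19), the build of the deposited files. Capitals mark matches, on either strand, to GAAA, any 2 bases and GAAA again (an ISRE), to AAGNGAAA (a short form of the ISRE, which can overlap the full one) or to GGGA, any base, T, any 2 bases and CC (a kB site). The stretch of HLA-E holds none of these and is shown for comparison with the other heavy chains.
HLA-B, chr6:31325074-31325163, minus strand: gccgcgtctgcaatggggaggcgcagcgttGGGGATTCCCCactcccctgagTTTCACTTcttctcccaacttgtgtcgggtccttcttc
HLA-C, chr6:31239983-31240071, minus strand: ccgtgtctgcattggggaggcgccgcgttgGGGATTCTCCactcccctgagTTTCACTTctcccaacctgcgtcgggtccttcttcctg
HLA-E, chr6:30457079-30457168, plus strand: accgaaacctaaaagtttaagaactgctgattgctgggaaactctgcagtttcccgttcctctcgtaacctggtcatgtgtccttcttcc
HLA-F, chr6:29691025-29691094, plus strand: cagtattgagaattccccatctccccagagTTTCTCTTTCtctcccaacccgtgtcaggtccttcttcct
B2M, chr15:45003541-45003629, plus strand: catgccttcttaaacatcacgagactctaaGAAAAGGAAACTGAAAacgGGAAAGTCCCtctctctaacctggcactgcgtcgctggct
TAP1, chr6:32821514-32821645, minus strand: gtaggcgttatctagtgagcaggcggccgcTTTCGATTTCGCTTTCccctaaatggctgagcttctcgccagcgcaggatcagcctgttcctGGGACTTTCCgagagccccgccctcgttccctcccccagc
TAP2, chr6:32806535-32806608, minus strand: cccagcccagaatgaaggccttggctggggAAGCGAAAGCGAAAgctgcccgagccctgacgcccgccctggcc
PSMB8, chr6:32811812-32811858, minus strand: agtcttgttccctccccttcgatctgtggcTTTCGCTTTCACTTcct

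In a window of 300 bases from 250 bases before the start site, the full ISRE letters occurred in 5 members (HLA-F, B2M, TAP1, TAP2 and PSMB8) and in 3.32% of the windows of 19330 genes. The short form occurred in 6 members (HLA-B, HLA-C, HLA-F, TAP1, TAP2 and PSMB8), against 6.49% of all windows. The kB letters occurred in 4 members (HLA-B, HLA-C, B2M and TAP1), against 5.46%. HLA-B and HLA-C carried the same arrangement, a kB match 177 and 172 bases before the start site followed by a short ISRE match at 155 and 151 bases. The letters TGACGC, the core of the X2 box, were found in 4 members (HLA-B, HLA-C, HLA-E and TAP2; 11.7% of all windows), and CCAAT in 7 (35.9%). PSMB9 held only a CCAAT match. Its start site lies 488 bp from that of TAP1 and points the other way, and the TAP1 stretch printed above lies between them, outside the PSMB9 window. A match is a run of letters and not a measured binding site. The letters were chosen after the sequences were seen, so the counts of members beside the shares of all windows are no independent test.

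The RNA-seq libraries hold 15153593 and 15766237 fragments on genes for vehicle and 13194533 and 13275457 for gemcitabine, so 3 fragments, which a gene with none could still have at this depth, equal 0.190 to 0.227 CPM, a count relative to the sum of its library (counting error only). The labels number the libraries as replicates and do not say whether they came from separate cultures, while the study's methods call them biological replicates. The epithelial keratins KRT7, KRT8 and KRT18 were abundant in all 4 libraries, with 5963 to 17660 fragments each, while KRT19 (45 to 94 fragments) and EPCAM (45 to 80) were low. The leukocyte markers PTPRC, CD3E, CD14 and LYZ stayed between 0 and 9 fragments, with CD3E and LYZ at 0 throughout. Of the endothelial markers, CDH5 had 0 to 3 fragments and VWF had 8 and 9 with vehicle against 34 and 30 with gemcitabine, while PECAM1 was not matched in the table.

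Of the 9 members, 8 were higher with gemcitabine in fragment counts, most by a small amount. HLA-E, the non-classical heavy chain recognised by natural killer cell receptors, rose by 0.54 on the log2 scale, and PSMB9 rose by 0.77, while the classical heavy chains HLA-B and HLA-C and their partner B2M rose by 0.22 to 0.27. TAP1 and PSMB8 rose by 0.37 each. TAP2 fell by 0.30 in fragment counts. In all, 7 members rose and 1 fell at an adjusted p under 0.05 (edgeR's quasi-likelihood test, Benjamini-Hochberg adjustment over 14854 genes), where 18.5% of all tested genes rose and 20.0% fell. HLA-F did not pass. The number that passed was 4 without vehicle replicate 1 and 2, HLA-E and PSMB9, without vehicle replicate 2. A stricter call, which also asked for a fold change over 1.5, a mean of at least 0.1 FPKM in 1 condition and a difference of at least 1 FPKM, was met by PSMB9 alone, with 5.69% of all tested genes called higher and 4.42% called lower. FPKM divides a gene's fragments by transcript length and library depth. The median log2 fold change was 0.37 over the 9 members and 0.0069 over all tested genes. Scaling by library totals in place of TMM raised these medians to 0.48 and 0.12, and PSMB9 and HLA-E were then called higher and no member lower (7.84% and 2.81% of all tested genes).

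**Figure D1:**
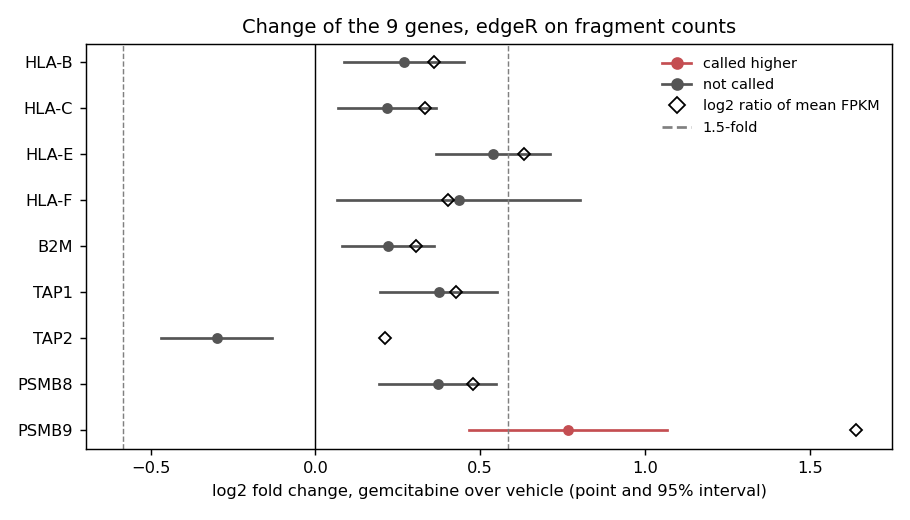
Change of each member between conditions, as the log2 fold change of gemcitabine over vehicle. Circles and bars are edgeR's estimate from fragment counts and its 95% interval (2 libraries per condition), diamonds are the log2 ratio of the mean FPKM, and dashed lines mark a 1.5-fold change; 8 of 9 circles lie above 0, TAP2 lies below 0 in counts and above 0 in FPKM, and the diamond of PSMB9 (1.64) lies far outside its count interval (0.47 to 1.07).

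Levels differed widely among the members. With vehicle, B2M stood at 3235 and 3008 FPKM, rank 13 of the 20461 genes by mean FPKM. HLA-B followed at 145 and 138 FPKM and HLA-C at 123 and 104 FPKM. PSMB8 was next at 46.9 and 41.9 FPKM. TAP2 (33.4 and 24.5 FPKM) and HLA-E (25.5 and 27.3 FPKM) overlapped, as did TAP1 (19.9 and 17.8 FPKM) and HLA-F (16.9 and 19.8 FPKM). PSMB9 was the lowest member at 4.49 and 4.95 FPKM. With gemcitabine the order at the top and at the bottom was the same. In the middle, the range of TAP2 overlapped those of HLA-E, TAP1 and HLA-F.

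**Figure D2:**
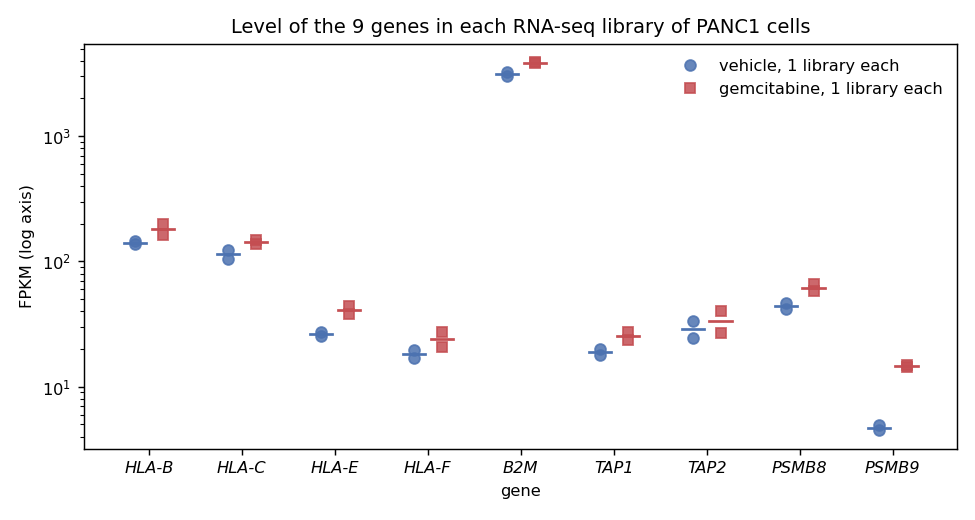
FPKM of the 9 members in each RNA-seq library, on a log axis. Blue circles are the 2 vehicle and red squares the 2 gemcitabine libraries, with a short line at each mean; the gemcitabine points lie above both vehicle points for every member except TAP2, whose points overlap.

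The FPKM of a gene depends on the length by which Cuffdiff divided its fragments, which can be recovered from the fragments, the FPKM and the library total. For HLA-B, HLA-C, HLA-E, TAP1 and PSMB8 this length lay between 0.981 and 2.98 kb, and their reference transcripts have 1536, 1542, 2548, 2685 and 1124 bases. The length of TAP1, 2.78 to 2.98 kb, was above its reference transcript in every library. At its upper end it was also above the longest annotated TAP1 transcript, of 2793 bases. For B2M it was 0.326 to 0.339 kb, against a reference transcript of 943 bases and transcripts of 407 to 2329 bases in the annotation. For HLA-F it was 0.331 to 0.401 kb, against 1480 bases. For HLA-F too this is under the shortest annotated transcript, of 489 bases. A shorter length gives a higher FPKM for the same fragments, which bears on the levels of B2M and HLA-F relative to the others, and where these lengths come from was not tested.

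The classical heavy chains were examined first. HLA-B (ENSG00000234745, chr6:31321649-31334844), which presents peptides to CD8 T cells, had 3037 and 3061 fragments with vehicle and 3079 and 3708 with gemcitabine, or 209 and 201 against 222 and 272 CPM after TMM scaling. Both gemcitabine libraries lay above both vehicle libraries, and the gap between the gemcitabine libraries was wider than the difference of the condition means. The log2 fold change was 0.27 (SE 0.09, 95% interval 0.09 to 0.45, edgeR adjusted p = 0.0215). HLA-C (ENSG00000204525, chr6:31236526-31239907), which presents peptides and is also a ligand of killer-cell immunoglobulin-like receptors, had 2113 and 2073 fragments with vehicle and 2192 and 2305 with gemcitabine, or 145 and 136 against 158 and 169 CPM. The conditions did not overlap, and the log2 fold change was 0.22 (SE 0.07, edgeR adjusted p = 0.0225). With any library left out, both log2 fold changes stayed positive, from 0.12 to 0.41 for HLA-B and from 0.17 to 0.27 for HLA-C. Such a fit keeps 1 library in a condition and takes the spread between replicates from the other condition alone. A pass or a failure to pass therefore also reflects the lost replicate. HLA-B did not pass without vehicle replicate 1 (edgeR adjusted p = 0.144), vehicle replicate 2 (0.219) or gemcitabine replicate 2 (0.102; log2 fold change 0.12), nor without a filter on low counts (0.0637), and HLA-C did not pass without vehicle replicate 1 (0.0909) or vehicle replicate 2 (0.236).

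Of the non-classical heavy chains, HLA-E rose and HLA-F did not pass. HLA-E (ENSG00000204592, chr6:30457286-30461971), which displays leader peptides of other heavy chains to the NKG2A receptor, had 960 and 994 fragments with vehicle and 1219 and 1403 with gemcitabine. In TMM-scaled values these were 66.0 and 65.3 against 87.8 and 103 CPM, so the vehicle libraries were nearly equal and both gemcitabine libraries stood clearly above them. HLA-E rose 1.45-fold (log2 0.54, SE 0.08, 95% interval 0.37 to 0.71, edgeR adjusted p = 0.000120), just under the fold criterion. It met the criterion without gemcitabine replicate 1 (log2 0.65) and with scaling by library totals (log2 0.65). With any library left out its log2 fold change was 0.42 to 0.65. HLA-F (ENSG00000204642, chr6:29690552-29706305), a non-classical molecule with little surface expression in most cells, was the member with the fewest fragments, 87 and 103 with vehicle and 110 and 127 with gemcitabine. Its log2 fold change of 0.43 (SE 0.17, 95% interval 0.06 to 0.80) did not pass (edgeR adjusted p = 0.0604), and passed with library totals (0.0236). Without gemcitabine replicate 1 the log2 fold change of HLA-F was 0.55. The ratio of HLA-E to HLA-B in FPKM was 0.176 and 0.198 with vehicle and 0.232 and 0.220 with gemcitabine. Here too the conditions did not overlap, but with 2 libraries against 2 an exact permutation test cannot give a two-sided p below 0.333, so these ratios carry no test.

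The heavy chains resemble one another in sequence, which can move reads between them. Of the runs of 50 bases in the reference transcript, 2.56% for HLA-B, 6.76% for HLA-C, 6.16% for HLA-E and 1.89% for HLA-F also occur in transcripts of another gene. Reads were aligned to the alleles of the reference genome, and the alleles of PANC1 were not typed here, so the effect of allele differences on the level of each heavy chain was not tested.

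B2M (ENSG00000166710, chr15:45003556-45011049), the light chain shared by all class I heavy chains and needed for their surface display, had 16004 and 16080 fragments with vehicle and 17125 and 17421 with gemcitabine. In CPM these were 1101 and 1056 against 1234 and 1279, without overlap. B2M rose 1.17-fold (log2 0.22, SE 0.07, edgeR adjusted p = 0.0158). Without vehicle replicate 1 it did not pass (0.127), nor without vehicle replicate 2 (0.225). The ratio of B2M to the sum of the 4 heavy chains in FPKM was 10.4 in both vehicle libraries and 10.7 and 9.23 with gemcitabine, so the vehicle values lay inside the range of the gemcitabine values. No run of 50 bases of the B2M transcript occurs in another gene.

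The transporter subunits, which form a heterodimer and are encoded by neighbouring genes, moved apart in fragment counts. TAP1 (ENSG00000168394, chr6:32812986-32821593) had 838 and 811 fragments with vehicle and 929 and 1045 with gemcitabine, or 57.7 and 53.2 against 66.9 and 76.7 CPM. Both gemcitabine libraries were higher, with a log2 fold change of 0.37 (SE 0.08, 95% interval 0.20 to 0.55, edgeR adjusted p = 0.00253). TAP1 missed the threshold when vehicle replicate 2 was left out (0.0890). TAP2 (ENSG00000204267, chr6:32789610-32806516) had 959.4 and 1038.3 fragments with vehicle and 710.3 and 788.3 with gemcitabine, or 66.0 and 68.2 against 51.2 and 57.9 CPM. Here both gemcitabine libraries were lower, with a log2 fold change of -0.30 (SE 0.08, 95% interval -0.47 to -0.13, edgeR adjusted p = 0.00785). It did not pass without vehicle replicate 1 (0.0832), without vehicle replicate 2 (0.132) or with library totals (0.0627). The ratio of TAP1 to TAP2 fragments was 0.873 and 0.781 with vehicle and 1.31 and 1.33 with gemcitabine, without overlap. In FPKM it was 0.596 and 0.728 against 0.876 and 0.678, and the conditions overlapped.

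The direction of TAP2 differed between the deposited measures. Its FPKM was 33.4 and 24.5 with vehicle and 27.0 and 40.0 with gemcitabine. These ranges overlap and their means point up, with a change of 0.19 on the log2(FPKM + 1) scale (limma adjusted p = 0.665). The length behind the FPKM varied more within each condition than for any other member, 1.90 and 2.69 kb with vehicle and 2.00 and 1.49 kb with gemcitabine. TAP2 also shares 2023 of its 10357 exon bases (19.5%) with a readthrough gene, ENSG00000250264, and 35.3% of the runs of 50 bases in its transcript occur in another gene. This gene had 104.5 and 95.2 fragments with vehicle and 53.6 and 15.8 with gemcitabine, a log2 fold change of -1.40 (SE 0.34, edgeR adjusted p = 0.00441), and reads from both cannot be told apart with certainty. The sum of their fragments was 1063.9 and 1133.5 with vehicle and 763.9 and 804.1 with gemcitabine, and it fell by 0.37 on the log2 scale (SE 0.07, edgeR adjusted p = 0.00102). The lower count of TAP2 was therefore also present when both genes were counted together.

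The immunoproteasome subunits rose, PSMB9 more than PSMB8. PSMB8 (ENSG00000204264, chr6:32808494-32812456), which replaces PSMB5, had 697 and 676 fragments with vehicle and 877 and 765 with gemcitabine, or 47.95 and 44.38 against 63.2 and 56.2 CPM. Both gemcitabine libraries were higher (log2 fold change 0.37, SE 0.08, edgeR adjusted p = 0.00276), and the rise missed the threshold without vehicle replicate 2 (0.0982). PSMB9 (ENSG00000240065, chr6:32811913-32827628), which replaces PSMB6, had 110 and 123 fragments with vehicle and 178 and 188 with gemcitabine, or 7.57 and 8.08 against 12.8 and 13.8 CPM. The replicates lay close together and far from the other condition. PSMB9 rose 1.70-fold in counts (log2 0.77, SE 0.14, 95% interval 0.47 to 1.07, edgeR adjusted p = 0.000628). With any library left out its log2 fold change was 0.71 to 0.82.

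In FPKM the rise of PSMB9 was larger, from 4.49 and 4.95 to 14.5 and 14.9, or 3.11-fold. The length behind the FPKM went from 1.62 and 1.58 kb with vehicle to 0.931 and 0.951 kb with gemcitabine, a log2 ratio of -0.76. Among 10600 genes with a mean of at least 100 fragments, the quartiles of these log2 ratios were -0.09 and 0.05. The length behind the FPKM changed by at least as much as for PSMB9 in 0.642% of these genes. It fell by at least as much in 0.443%. The annotation holds 5 PSMB9 transcripts of 439 to 2676 bases. Of the 3338 exon bases of PSMB9, 139 overlap those of PSMB8 and none overlap those of TAP1. The deposited table sums over isoforms, so whether the shares of these transcripts changed was not tested.

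**Figure D3:**
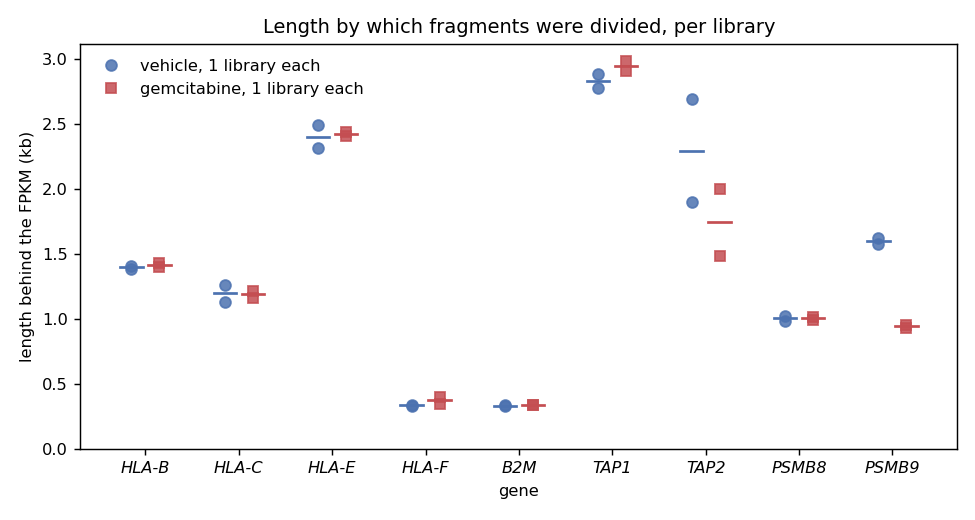
Length in kb by which the fragments of each member were divided to give its FPKM, in each library. Blue circles are the 2 vehicle and red squares the 2 gemcitabine libraries, with a line at each mean; PSMB9 drops from 1.62 and 1.58 kb to 0.931 and 0.951 kb, TAP2 scatters within both conditions, and the other members lie at similar lengths in all 4 libraries.

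Each inducible subunit was also set against the constitutive subunit that it replaces. The ratio of PSMB9 to PSMB6 in FPKM was 0.0284 and 0.0319 with vehicle and 0.0833 and 0.0912 with gemcitabine. In fragments, which are not divided by a length, it was 0.0727 and 0.0781 against 0.118 and 0.135. Whether what changed the length behind the FPKM of PSMB9 also affected its fragments was not tested. PSMB8 to PSMB5 in FPKM was 0.192 and 0.196 with vehicle and 0.221 and 0.192 with gemcitabine, which overlap, and in fragments 0.371 and 0.365 against 0.411 and 0.392, which do not. PSMB10 to PSMB7 in FPKM was 0.101 and 0.0980 against 0.118 and 0.0976, which overlap, and in fragments 0.0466 and 0.0415 against 0.0606 and 0.0512, which do not. In fragments all 3 ratios were thus higher in both gemcitabine libraries, by 1.67-fold for PSMB9, 1.09-fold for PSMB8 and 1.27-fold for PSMB10, and in FPKM the conditions were separate for PSMB9 only. These ratios carry no test.

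Over the 9 members, TMM-scaled CPM did not overlap between conditions for any gene, with 8 higher and 1 lower after gemcitabine. With 2 libraries a condition such separation is frequent, since 35.0% of all tested genes were higher and 34.7% lower without overlap. In FPKM, 8 members were higher without overlap, against 41.8% of all tested genes.

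Open chromatin at the members' start sites was read from the lists of DNaseI peaks that the authors called in each condition, with 9606 peaks for vehicle and 10695 for gemcitabine. With 1 library per condition there is no replicate check and no test. Peaks within 1 kb of the start site were listed in the gemcitabine library alone for 3 members, HLA-E, B2M and TAP2 (7.78% of 19330 genes), and in the vehicle library alone for PSMB8 (4.77%). No member had a peak in both lists (14.3%), and HLA-B, HLA-C, HLA-F, TAP1 and PSMB9 had none in either. Over all genes, the vehicle list reached 19.0% and the gemcitabine list 22.0% of start sites. Absence from a list therefore does not show that a start site was closed. The peak of HLA-E (chr6:30456951-30458236) scored 67.44, where the score is the negative log10 of the MACS p-value times 10 and the lists start at 50. It covers the start site and the beginning of the gene. Those of B2M (chr15:45003190-45004157) and TAP2 (chr6:32806038-32806914) scored 51.36 and 53.24 and also cover the start sites. The vehicle peak near PSMB8 (chr6:32812059-32812890), 235 bp upstream of the start site, scored 51.25 and lies within the annotated span of PSMB9 as well. All of these scores lie under the medians of the lists (71.06 for vehicle and 73.77 for gemcitabine), close to the limit for being listed, and no member had a peak with a score of at least 100.

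The ISRE and kB matches of B2M and the ISRE match of TAP2 lie inside the gemcitabine peaks. The peak of HLA-E covers a start site without any such match. HLA-E, with a peak in the gemcitabine list alone, rose in counts, and so did B2M, whereas TAP2, also with a peak in that list alone, fell. PSMB8 rose and had its peak in the vehicle list. Presence of a peak and change of the transcript thus did not run the same way over these 4 members.

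**Figure D4:**
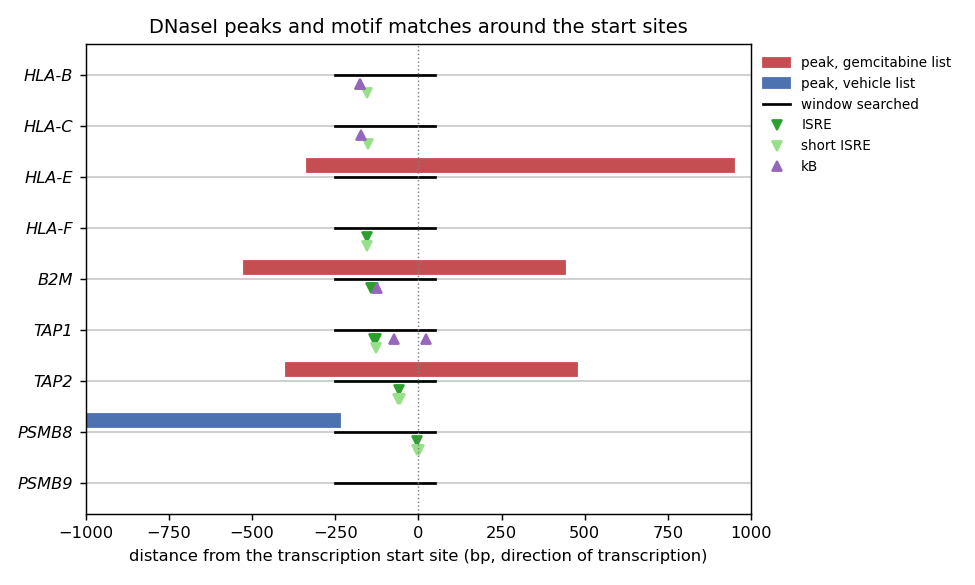
DNaseI peaks and motif matches around the start site of each member, with the distance in bp in the direction of transcription. Red bars are peaks of the gemcitabine list and blue bars peaks of the vehicle list, cut at 1000 bp, black lines are the windows searched and triangles are matches; red bars lie over the start sites of HLA-E, B2M and TAP2, and a blue bar lies upstream of PSMB8.

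The steps next to the members were followed in lists of pathway genes. Of 7 genes of peptide trimming and loading, 2 rose and 2 fell at an adjusted p under 0.05, against 18.5% and 20.0% of all tested genes. ERAP2, an aminopeptidase that trims peptides in the endoplasmic reticulum, was called higher, with 39 and 62 fragments under vehicle and 96 and 88 under gemcitabine (log2 fold change 0.98, SE 0.23, edgeR adjusted p = 0.00331). TAPBP (tapasin), which bridges TAP and the heavy chain, rose by 0.29 (edgeR adjusted p = 0.00619). The chaperone CANX (calnexin) fell by 0.17 (0.0495) and the oxidoreductase PDIA3 by 0.20 (0.0315), and with library totals neither passed (-0.063, 0.418 and -0.093, 0.241). Nor did either pass without a filter on low counts (edgeR adjusted p = 0.0594 and 0.0523) or in any limma fit on FPKM. CANX also missed the threshold with RLE size factors (0.0519) and with another filter on low counts (0.0567). CALR (0.15), ERAP1 (-0.12) and TAPBPL (0.92, from 7 to 16 fragments) did not pass. Without vehicle replicate 1, ERAP2 (log2 fold change 0.72), TAPBP (0.35), CANX (-0.20) and PDIA3 (-0.18) did not pass. Nor did the last 3 without vehicle replicate 2 (log2 fold changes 0.25, -0.13 and -0.21). Without gemcitabine replicate 2 the log2 fold change was 0.18 for CALR and -0.25 for ERAP1.

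Of 6 further proteasome genes, 3 rose and none fell at an adjusted p under 0.05, against 18.5% and 20.0% of all tested genes. PSME2, a subunit of the interferon-inducible PA28 activator, was called higher, with 463 and 473 fragments under vehicle and 706 and 593 under gemcitabine (log2 fold change 0.59, SE 0.09, edgeR adjusted p = 0.000182). It lay at the fold criterion, and under it without vehicle replicate 2 (0.576) or gemcitabine replicate 1 (0.471). Its partner PSME1 rose by 0.29 (edgeR adjusted p = 0.00511) and the constitutive PSMB5 by 0.24 (0.0120). PSMB10, the remaining inducible subunit, had a log2 fold change of 0.31 and did not pass (0.0644). PSMB6 (0.03) and PSMB7 (-0.04) did not pass, and PSMB7 was at 0.070 with library totals. Without vehicle replicate 1 or 2, PSME1 (log2 fold change 0.31 and 0.28) and PSMB5 (0.30 and 0.21) did not pass. Without gemcitabine replicate 2 the log2 fold change of PSMB10 was 0.44.

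The class I-like list held 5 genes, of which 4 were tested and 3 rose (18.5% of all tested genes). MR1, which presents vitamin B metabolites to mucosal-associated T cells, was called higher, with 189 and 164 fragments under vehicle and 433 and 412 under gemcitabine (log2 fold change 1.37, SE 0.11, edgeR adjusted p = 6.61e-07). That is a larger estimate than that of any member. FCGRT, the neonatal Fc receptor, rose by 0.58 (0.000761) and HFE, a regulator of iron uptake, by 0.31 (0.0202; 0.200 without vehicle replicate 1, 0.0786 without vehicle replicate 2 and 0.136 with DESeq2). HLA-G did not pass (0.29; 0.111), and CD1D had 0 fragments in all libraries.

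Of 20 known regulators of class I genes, 8 rose and 5 fell at an adjusted p under 0.05, against 18.5% and 20.0% of all tested genes. The 5 called higher were RELB (log2 fold change 1.46), IRF1 (1.44), STAT2 (1.02), IRF9 (1.01) and NFKB2 (0.98), with edgeR adjusted p-values from 5.06e-07 to 0.000673. IRF1, a transcription factor that binds ISRE sequences, had 126 and 168 fragments with vehicle and 391 and 345 with gemcitabine. STAT2 and IRF9 are subunits of ISGF3, the factor that acts downstream of type I interferon receptors, and RELB and NFKB2 form the non-canonical NF-kB dimer. NLRC5, the class I transactivator, had 677 and 843 fragments with vehicle and 680 and 616 with gemcitabine and did not pass (log2 fold change -0.11, edgeR adjusted p = 0.349). RFX5 (0.11; 0.196) and RELA (-0.07; 0.434) did not pass either, and RELA was at 0.041 with library totals. Of the RFX subunits that NLRC5 works with, RFXANK rose by 0.31 (0.00941; 0.0684 with DESeq2) and RFXAP was called lower (-0.71; 0.00339), as was USF2 (-0.59; 6.40e-05), a factor that binds E-boxes. USF2 lay at the fold criterion and was under it without vehicle replicate 2 (-0.531) or gemcitabine replicate 1 (-0.494), with library totals (-0.476), and by a small margin with DESeq2 (-0.583), RLE size factors (-0.583) and other filters on low counts (-0.575 and -0.579). NFKB1 fell by 0.20 (0.0419), and did not pass with library totals (-0.095; 0.316) or with DESeq2 (0.191). Of the NFY subunits, NFYA fell by 0.52 (edgeR adjusted p = 0.000478) and NFYC by 0.25 (0.0327). NFYB did not pass (-0.14; 0.213), and no NFY gene was called. Other settings were not followed for the NFY genes. Without vehicle replicate 2, IRF9 (0.0515), RFXAP (0.107), RFXANK (0.138) and NFKB1 (0.168) did not pass, and RFXAP (0.0518), RFXANK (0.0611) and NFKB1 (0.268) did not pass without vehicle replicate 1, nor NFKB1 without gemcitabine replicate 1 (0.0909). Over all pathway lists, 9 genes were called higher and 2 lower of 44 tested, against 5.69% and 4.42% of all tested genes, and 6 were called without vehicle replicate 2.

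**Figure D5:**
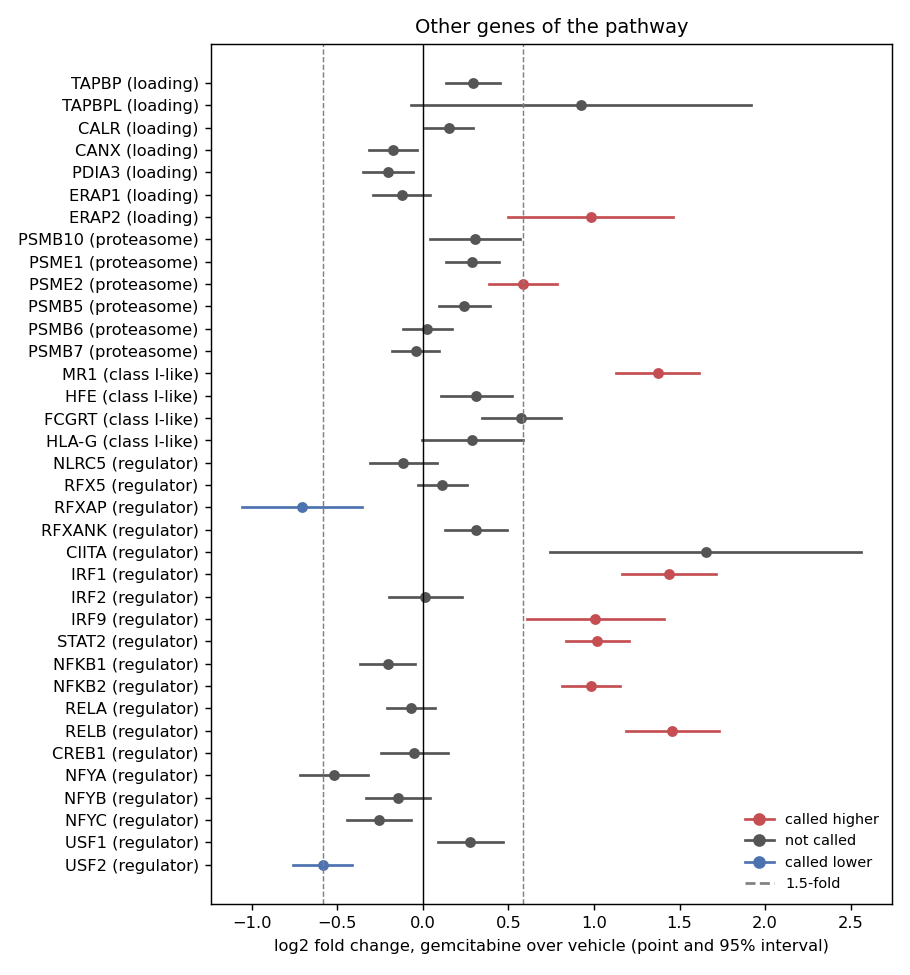
Log2 fold change of gemcitabine over vehicle, with its 95% interval from edgeR (2 libraries per condition), for tested genes of the loading, proteasome, class I-like and regulator lists. Red marks genes called higher, blue genes called lower and grey genes not called, and dashed lines mark a 1.5-fold change; IRF1, RELB, MR1, STAT2, IRF9, NFKB2 and ERAP2 lie near 1 or above, and NLRC5 and RFX5 lie near 0.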

How the data were processed

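Single-end RNA-seq reads were aligned by the authors to hg19 with TopHat2 2.0.8, and Cuffdiff 2.0.2 assigned them to Gencode protein-coding genes (versions from the submitters' processing notes). The deposited table gives estimated counts (fragments per gene and library, not normalized, 86.8% of values whole) and FPKM, which the authors obtained from Cuffdiff. Its 2 further columns of scaled values were not used. The replicate index of the table cannot be tied to the labels, so replicate numbers only tell libraries apart. Cuffdiff marked 275 genes as failed, no member among them. DNaseI peak lists were deposited with a score per peak, which the authors made with MACS (version not given in the sources used here).

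Estimated counts were rounded, genes under 10 fragments in all 4 libraries together were left out, and the quasi-likelihood test of edgeR 4.0.16 (R 4.3.3) was run after TMM scaling (factors 0.959 to 1.05) on 14854 genes, with no covariate, 2-sided, with Benjamini-Hochberg adjustment; adjusted p-values in the text are from this test unless limma is named. "Rose" and "fell" mean an adjusted p under 0.05. The F statistic and the log2 estimate gave each standard error. The test was checked on simulated counts. The alternatives were DESeq2 1.42.0, other scaling and filters, limma 3.58.1 on FPKM, other thresholds, and each library left out. Start sites, exons and transcripts came from a Gencode annotation on GRCh37 later than the authors'. The strand setting of the libraries is not given in the sources used here.

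The members and lists were chosen with earlier results of these data known, and the motif letters after the sequences were seen. Named genes are all members, all loading and proteasome genes, every list gene called, NLRC5, RFX5, RFXAP, RFXANK, IRF1, RELA and NFKB1, and the 2 nearest tested genes on each side of the TAP2-PSMB9 block. Others, such as HFE, FCGRT, HLA-G, CD1D and the NFY genes, were named after their values were seen. A few list genes are not reported here.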

Additional observations from a re-analysis of the deposited data

How the results depend on the processing

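No paired analysis was possible because nothing ties the table's replicate index to the numbers in the labels. All 9 members kept their direction under every alternative run, except TAP2, which was at 0.19 with limma on log2(FPKM + 1), with or without a minimum mean of 0.1 FPKM, and at 0.20 on log2(FPKM + 0.1). The 1 called member became 8 with adjusted p under 0.05 alone, 2 with library totals and 2 with limma at a mean of at least 0.1 FPKM, and 1 to 2 with a library left out. The 8 members at an adjusted p under 0.05, 7 of them higher, became 1, 1 and 3, all higher, in the 3 limma fits (FPKM + 1, FPKM + 0.1 and the filtered one). With a library left out they were 2 to 9, with 2 to 8 higher (4, all higher, without vehicle replicate 1, and 2, both higher, without vehicle replicate 2). Calls over all genes (1501) became 5726 with adjusted p alone, 404 and 606 with limma on FPKM + 1 and + 0.1, and 1268 to 1694 with a library left out. The 11 calls of the 6 pathway lists became 26, 3 and 5 under the same 3 settings, and 6 at the fewest, without vehicle replicate 2. Of all calls 56.3% were higher, against 73.6% with library totals and 70.6% to 74.3% with limma. Other signs that changed were those of ERAP1 (0.25, 0.27 and 0.25) and PSMB7 (0.25 in each) in the limma fits, PSMB7 (0.070) and RELA (0.041) with library totals, and those of PSMB6, which ran from -0.015 without gemcitabine replicate 1 to 0.072 without gemcitabine replicate 2, and of NLRC5, which ran from -0.22 without vehicle replicate 1 to 0.025 without vehicle replicate 2. The cause was not tested. At a score of at least 100, 0 members had a peak in the gemcitabine list (3 as reported) and 0 in the vehicle list (1 as reported), and 0 vehicle peaks overlapped a start site. Over 40 genes and 520 values, 388 kept direction and side of the threshold, 107 no longer passed, 12 newly passed and 13 changed sign. Depth limits HLA-F and PSMB9 most, with under 200 fragments in every library.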

Other observations

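The interferon genes IFNB1, IFNG and IFNL1 had 0 fragments in all 4 libraries, which allows up to 0.190 to 0.227 CPM. Of the 4 receptor genes, IFNAR1 rose by 0.27 on the log2 scale (edgeR adjusted p = 0.00838) and IFNGR1 by 0.28 (0.0147), while IFNAR2 (-0.05; 0.727) and IFNGR2 (-0.01; 0.937) did not pass. Of all tested genes, 18.5% rose and 20.0% fell. The receptor genes were named after their values were seen.

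Class II presentation genes were mostly near 0. Of 11, 3 were tested, where 5.69% of all tested genes were called higher and 4.42% lower. HLA-DMA, which helps load peptides onto class II molecules, was the only one of these 3 called, with 61.9 and 58.7 fragments under vehicle and 119.5 and 94.2 under gemcitabine (log2 fold change 0.93, SE 0.20, edgeR adjusted p = 0.00181; 0.0631 without vehicle replicate 2). CIITA, the class II transactivator, had 7 and 9 fragments with vehicle and 22 and 25 with gemcitabine (log2 fold change 1.65, SE 0.42, edgeR adjusted p = 0.00669; 0.0660 without vehicle replicate 1) and was not called because its FPKM differed by less than 1. The nearest tested genes around the TAP2-PSMB8-TAP1-PSMB9 block were HLA-DOB and NOTCH4 on one side and ENSG00000248993 and HLA-DMA on the other. HLA-DMA rose, and HLA-DOB (-0.14), NOTCH4 (1.95) and ENSG00000248993 (1.98), each with 10 fragments or fewer in every library, did not pass (edgeR adjusted p = 0.918, 0.0937 and 0.125).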
